A study of Mus musculus with 6 samples.

Results

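The genes described here are 34 members of the contractile machinery of smooth muscle, pericytes and related cells. They were chosen by symbol for these roles. The rule itself uses no measured value, but the choice was made with earlier results of these data known. All 34 were found among the 18849 genes of the expression table. Smooth muscle cells contract when calcium activates myosin light chain kinase, whose product, phosphorylated light chain, lets myosin pull on actin filaments that carry tropomyosin, caldesmon, calponin and transgelin. Pericytes, which wrap capillaries, and myofibroblasts, the actin-rich matrix-producing cells of a scarring kidney, build many of the same proteins. Many of the genes are switched on by serum response factor (Srf) with cofactors of the myocardin family, through a DNA element called the CArG box.

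Messenger RNA of whole kidney was sequenced in 6 libraries. All mice were 8-week-old C57BL/6 males and had undergone 14 days of unilateral ureteral obstruction (UUO), in which a tied ureter leads to tubule damage and scarring. The 3 knockout libraries (c-AblEpi-cKO, labelled c-Abl knockdown) came from mice with loxP-flanked c-Abl (Abl1) and a Ksp-Cre transgene, and the 3 floxed libraries (c-Ablflox/flox, labelled WT) from mice with the loxP-flanked gene and no stated Cre. Ksp-Cre uses the promoter of kidney-specific cadherin (Cdh16) and acts in tubule epithelium, so smooth muscle cells, pericytes and fibroblasts are outside its stated target. All animals were obstructed, and unobstructed kidneys were not analysed here.

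Expression is given as FPKM, fragments scaled to gene length and to the mapped fragments of the library, so that levels of different genes can be compared. The spacing of low values gave an estimated 16100000 to 16600000 fragments in knockout and 16200000 to 17950000 in floxed libraries. Log2 fold changes are knockout minus floxed on the log2(FPKM + 1) scale, with their standard error (SE) from limma, and understate the change of low genes. The targeted gene Abl1 read 10.46, 14.45 and 12.91 FPKM in knockout replicates 1, 2 and 3, against 18.16, 15.93 and 17.33 FPKM in floxed replicates 1, 2 and 3 (log2 fold change -0.42 with SE 0.144, limma adjusted p = 0.144, exact permutation p = 0.1). Its relative Abl2 averaged 4.60 ± 0.850 FPKM in knockout and 5.63 ± 0.384 FPKM in floxed kidneys (limma adjusted p = 0.335). Kidney tubule markers were abundant in both groups, with uromodulin (Umod) between 608.05 and 929.21 FPKM in knockout and between 433.88 and 580.83 FPKM in floxed libraries. Knockout replicate 3 stood apart from the other knockout libraries. On the first principal component of all genes tested, which held 61.8% of the variance, it lay at 7.48, against -54.1 and -37.4 for knockout replicates 1 and 2 and 26.2 to 29.0 for the floxed libraries. Results are given with and without it. Since its place near the floxed group is what set it apart, dropping it raises the count of calls by construction and is no independent support.

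Promoters that carry a CArG box are shown first, because Srf is itself a member and the box is the element it binds. The search covered RefSeq promoter windows of mouse build GRCm38.p6, from 250 bases before to 50 bases after the start site. The deposited values used another build, so the coordinates below belong to the RefSeq windows alone. A CArG box was taken as CC, then 6 bases that are each A or T, then GG, a pattern that reads alike on both strands. Windows were present for 29 of the 34 genes, and those without one are Actg2, Csrp2, Myh11, Myocd and Tagln. The box occurred in 3 of the 29 (Srf, Cnn2 and Myl9), and in 1.81% of all 27025 genes with windows. A looser pattern, with exactly 1 G or C among the 6 core bases, occurred in 2 of the 29 (Acta2 and Myl9) and in 9.69% of all genes.

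The stretches run 5′ to 3′ on the gene's strand, with the boxes in capitals and 20 bases on either side, and no boxes overlap. That of Srf (chr17:46556195-46556264, minus strand) holds boxes starting 82 and 62 bases before the start site. That of Cnn2 (chr10:79988524-79988573, plus strand) holds a box starting 56 bases before it. That of Myl9 (chr2:156775283-156775394, plus strand) holds a box starting 161 bases and a looser box starting 99 bases before it. That of Acta2 (chr19:34255378-34255477, minus strand) holds looser boxes starting 84 and 34 bases before it. These matches describe the letters in the windows, and no binding was measured.
Srf: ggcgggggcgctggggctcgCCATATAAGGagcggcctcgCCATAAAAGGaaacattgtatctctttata
Cnn2: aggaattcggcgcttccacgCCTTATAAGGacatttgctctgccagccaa
Myl9: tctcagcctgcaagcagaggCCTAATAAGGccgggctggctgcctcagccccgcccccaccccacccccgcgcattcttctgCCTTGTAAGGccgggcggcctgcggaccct
Acta2: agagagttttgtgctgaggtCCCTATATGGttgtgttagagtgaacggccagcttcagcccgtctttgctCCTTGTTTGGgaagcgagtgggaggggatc

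**Figure D1:**
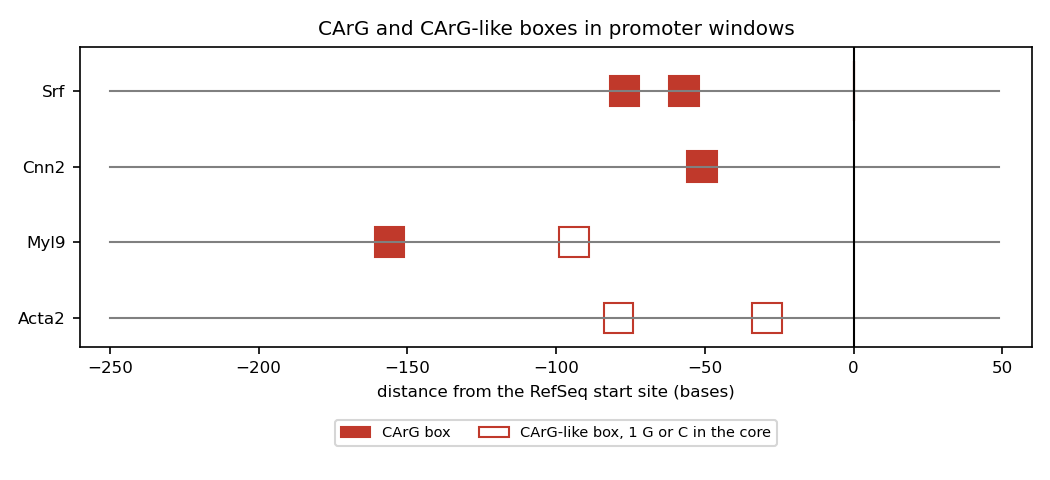
Positions of CArG boxes (filled) and of CArG-like boxes with 1 G or C in the core (open) in the promoter windows of Srf, Cnn2, Myl9 and Acta2. The horizontal axis is the distance in bases from the RefSeq start site, marked by the vertical line. All boxes lie upstream, the nearest starting 34 bases and the farthest 161 bases before it.

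Contractile and cytoskeletal members read lower in knockout than in floxed kidneys, but no member passed the limma test over all genes. Of the 34 genes, 31 had at least 1 FPKM in at least 3 of the 6 libraries and were tested, together with 13390 genes in all. At an adjusted p under 0.05, 0 members were lower and 0 higher, against 0.0373% and 0.0299% of all genes, and the lowest adjusted p of a member was 0.0633. At an unadjusted limma p under 0.05, 18 members were lower and 1 was higher, against 16.3% and 8.38% of all genes, and 30 of the 31 had a log2 fold change below 0, against 65.4% of all genes. Median-ratio and quantile scaling moved the median of all genes by 0.142 and 0.113. With median-ratio scaling 18 members were again lower and 1 higher, against 11.3% and 13.5% of all genes, and with quantile scaling 18 and 1, against 12.1% and 12.2%. Among all genes below that unadjusted threshold, the share higher in knockout was 34% as deposited, 54.3% with median-ratio and 50.1% with quantile scaling. The median log2 fold change was -0.79 over the 31 tested members and -0.74 over all 34, against -0.12 over all genes tested, so that the members' median lay at -0.66 relative to that of all genes. Among the 31 tested members the groups did not overlap for 15 lower in knockout and 1 higher, against 21.7% and 10% of all genes tested. Synpo2 and Kcnmb1, below the filter, did not overlap either. The smallest two-sided p that an exact permutation test can give with 3 against 3 libraries is 0.1, so that test cannot reach 0.05 for any single gene.

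Without knockout replicate 3, 20 members passed as lower and 1 as higher at an adjusted p under 0.05, against 15.4% and 9.02% of all genes. Leaving out any other library gave 0 members. The 34 genes summed to 679, 754 and 1312 FPKM in knockout replicates 1, 2 and 3. They summed to 1556, 1443 and 1791 FPKM in floxed replicates 1, 2 and 3, with every knockout sum below every floxed sum. Abundant genes such as Tpm1, Tpm4 and Csrp2 weigh heavily in these sums, which are of the deposited values without other scaling. The members' median log2 difference from the floxed mean was -1.06 and -1.02 in knockout replicates 1 and 2 and -0.28 in replicate 3. In whole tissue, fewer cells of a type and less RNA per cell cannot be told apart.

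**Figure D2:**
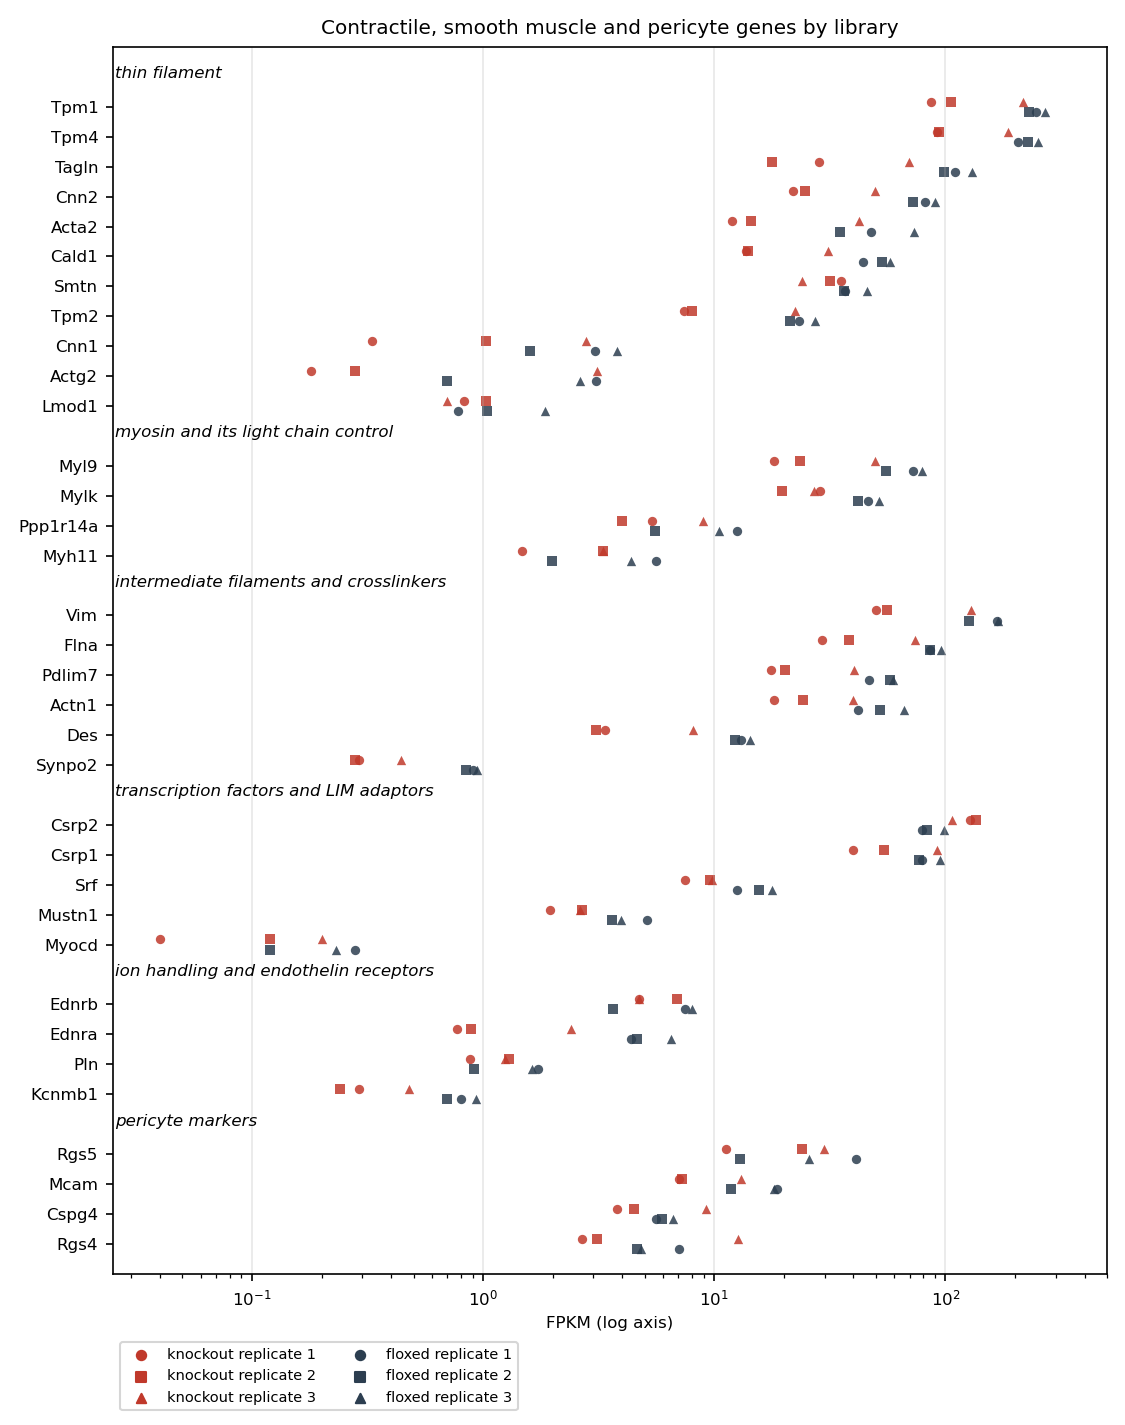
FPKM of the 34 genes in each library, on a log axis, with genes grouped by role and ordered by floxed mean within a role. Red symbols are knockout and dark symbols floxed libraries, and the shape gives the replicate. For most cytoskeletal genes knockout replicates 1 and 2 lie far to the left of the floxed libraries and replicate 3 between, as for Tagln at 28.46, 17.81 and 69.29 FPKM, against 99 to 130.83 FPKM in floxed libraries.

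Levels spanned a wide range. In floxed kidneys the tropomyosins Tpm1 and Tpm4 averaged 248 ± 19.7 and 229 ± 23.6 FPKM, vimentin 155 ± 24.0 and transgelin 113 ± 16.1 FPKM (SD, n = 3). The tropomyosins and vimentin are used by many cell types. Of genes best known from smooth muscle, smoothelin (Smtn) averaged 39.5 ± 5.31 FPKM in floxed kidneys. The myosin heavy chain Myh11 averaged 3.99 ± 1.85 and leiomodin Lmod1 1.23 ± 0.564 FPKM there. Myocardin (Myocd), the smooth muscle cofactor of Srf, was lowest, at 0.04, 0.12 and 0.2 FPKM in knockout and 0.28, 0.12 and 0.23 FPKM in floxed libraries. With the length of its longest annotated coding transcript, these values stand for about 3, 10 and 16 fragments in knockout and 23, 11 and 21 in floxed libraries, and the groups overlapped.

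Among thin filament genes, 7 of 11 were lower at an unadjusted p under 0.05 and all 11 had a log2 fold change below 0, against 16.3% and 65.4% of all genes, with a median of -0.97 against -0.12. Smooth muscle actin (Acta2), the actin of smooth muscle and the usual myofibroblast marker, read 11.9, 14.36 and 42.16 FPKM in knockout replicates 1, 2 and 3, against 47.63, 34.89 and 72.98 FPKM in floxed replicates 1, 2 and 3. Knockout replicate 3 fell inside the floxed range and the other knockout libraries lay below it (log2 fold change -1.31 with SE 0.481, limma adjusted p = 0.165, exact permutation p = 0.2). Transgelin (Tagln), an actin-binding protein of smooth muscle, read 28.46, 17.81 and 69.29 FPKM in knockout, against 110.28, 99 and 130.83 FPKM in floxed libraries. Its groups did not overlap, its knockout mean was 0.340 of the floxed mean, and its log2 fold change was -1.75 (SE 0.443, limma adjusted p = 0.0933, exact permutation p = 0.1). Calponin 1 (Cnn1), which restrains the myosin motor in differentiated smooth muscle, was scarce at 0.33, 1.03 and 2.78 FPKM in knockout and 3.04, 1.6 and 3.78 FPKM in floxed libraries. The groups overlapped (log2 fold change -0.77 with SE 0.409, limma adjusted p = 0.279, exact permutation p = 0.2).

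Calponin 2 (Cnn2), the widely expressed relative whose promoter box is shown above, was more abundant, at 21.89, 24.57 and 49.59 FPKM in knockout, against 81.78, 72.09 and 90.14 FPKM in floxed libraries. All knockout libraries were below all floxed ones (log2 fold change -1.41 with SE 0.296, limma adjusted p = 0.0687). Caldesmon (Cald1), which holds actin and myosin together and blocks the motor at rest, read 13.7, 13.97 and 31.03 FPKM in knockout, against 43.82, 53.3 and 57.35 FPKM in floxed libraries, again with no overlap (log2 fold change -1.44 with SE 0.309, limma adjusted p = 0.0716). Tropomyosins lie along the actin groove and gate myosin. Tpm1 read 86.58, 105.31 and 216.47 FPKM in knockout, against 245.29, 229.6 and 268.66 FPKM in floxed libraries (log2 fold change -0.97 with SE 0.324, limma adjusted p = 0.140). Tpm2 read 7.41, 7.99 and 22.43 FPKM in knockout, against 23.18, 21.3 and 27.37 FPKM in floxed libraries (log2 fold change -1.04 with SE 0.383, limma adjusted p = 0.165). Tpm4, a non-muscle form, read 91.78, 93.53 and 186.16 FPKM in knockout, against 205.12, 228.16 and 252.36 FPKM in floxed libraries (log2 fold change -0.96 with SE 0.281, limma adjusted p = 0.115). The groups did not overlap for Tpm1 and Tpm4, while knockout replicate 3 fell inside the floxed range for Tpm2. Of 50-base windows of the Tpm4 transcript, 12.1% also occur in a transcript of the gene Gm7809, and how reads shared by both were counted is not given in the sources used here. The other members shared at most 1.02% of such windows with another gene.

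The groups of Actg2 and Lmod1 overlapped, while those of Smtn did not. Enteric gamma actin (Actg2) averaged 1.19 ± 1.67 FPKM in knockout and 2.14 ± 1.26 FPKM in floxed kidneys, with 0.18 and 0.28 FPKM in the first and second knockout libraries and 3.12 FPKM, above every floxed library, in replicate 3. Smoothelin (Smtn), a smooth muscle actin-binding protein, averaged 30.3 ± 5.79 FPKM in knockout and 39.5 ± 5.31 FPKM in floxed kidneys, and here replicate 3 was the lowest knockout library at 23.99 FPKM. The actin nucleator Lmod1 averaged 0.853 ± 0.166 FPKM in knockout and 1.23 ± 0.564 FPKM in floxed kidneys (limma adjusted p = 0.460, 0.227 and 0.501 for Actg2, Smtn and Lmod1). When knockout replicate 3 was left out, 8 of the 11 thin filament genes passed as lower, against 15.4% of all genes. They were Acta2, Tagln, Cnn1, Cnn2, Cald1, Tpm1, Tpm2 and Tpm4.

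Of the 4 myosin genes, 2 were lower at an unadjusted p under 0.05, against 16.3% of all genes. Myosin light chain kinase (Mylk), the calcium-activated enzyme that starts contraction, read 28.63, 19.71 and 27 FPKM in knockout, against 46.25, 42.05 and 51.4 FPKM in floxed libraries. Its 3 knockout libraries were all below the floxed ones, with replicate 2 the lowest. Its limma adjusted p of 0.0633 was the lowest of the 31 (log2 fold change -0.88 with SE 0.167). The regulatory light chain Myl9, the substrate of that kinase in smooth muscle, read 18.13, 23.47 and 49.46 FPKM in knockout, against 72.19, 55.21 and 78.84 FPKM in floxed libraries, with no overlap (log2 fold change -1.27 with SE 0.352, limma adjusted p = 0.106). The motor Myh11 read 1.48, 3.31 and 3.31 FPKM in knockout, against 5.61, 1.98 and 4.37 FPKM in floxed libraries. The 2 higher floxed libraries lay above every knockout library, and floxed replicate 2 lay within the knockout range (log2 fold change -0.40 with SE 0.352, limma adjusted p = 0.489, exact permutation p = 0.4). Ppp1r14a, an inhibitor of the phosphatase that ends contraction, averaged 6.10 ± 2.55 FPKM in knockout and 9.53 ± 3.60 FPKM in floxed kidneys (limma adjusted p = 0.335). When knockout replicate 3 was left out, Mylk and Myl9 of the 4 genes passed as lower, against 15.4% of all genes.

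Intermediate filament and crosslinker genes were all lower at an unadjusted p under 0.05 where tested, 5 of 5 against 16.3% of all genes, with a median log2 fold change of -1.09. Desmin (Des), the muscle intermediate filament also made by pericytes, read 3.36, 3.07 and 8.06 FPKM in knockout, against 13.09, 12.25 and 14.28 FPKM in floxed libraries. Every knockout library lay well below the narrow floxed range (log2 fold change -1.38 with SE 0.304, limma adjusted p = 0.0740, exact permutation p = 0.1). Vimentin (Vim), the intermediate filament of mesenchymal cells, which injured tubule cells can also make, read 50.22, 55.6 and 128.76 FPKM in knockout, against 167.69, 126.8 and 169.06 FPKM in floxed libraries. Knockout replicate 3 exceeded the lowest floxed library, so the groups overlapped (log2 fold change -1.09 with SE 0.353, limma adjusted p = 0.133, exact permutation p = 0.2). Filamin A (Flna), which crosslinks actin into networks, read 29.37, 38.44 and 73.95 FPKM in knockout, against 85.43, 85.34 and 95.34 FPKM in floxed libraries (log2 fold change -1.0 with SE 0.311, limma adjusted p = 0.125).

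Alpha-actinin 1 (Actn1), an actin bundler, read 18.06, 24.3 and 39.93 FPKM in knockout, against 41.85, 52.04 and 66 FPKM in floxed libraries (log2 fold change -0.98 with SE 0.298, limma adjusted p = 0.119). Pdlim7, a scaffold that binds actin-anchored proteins, read 17.57, 20.14 and 40.18 FPKM in knockout, against 46.5, 57.69 and 59.22 FPKM in floxed libraries (log2 fold change -1.13 with SE 0.298, limma adjusted p = 0.0983). Neither gene's groups overlapped. Synaptopodin 2 (Synpo2), an actin-bundling protein of muscle, was below the expression filter, at 0.29, 0.28 and 0.44 FPKM in knockout and 0.9, 0.84 and 0.94 FPKM in floxed libraries, about 42 to 65 fragments against 134 to 155. Its groups did not overlap either, and it was tested with no filter alone (limma unadjusted p = 0.00028, adjusted p = 0.0989). All 5 tested genes of the group passed as lower when knockout replicate 3 was left out, against 15.4% of all genes.

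Among the 4 tested transcription factor and LIM-domain adaptor genes, 2 were lower and 1 higher at an unadjusted p under 0.05, against 16.3% and 8.38% of all genes. Srf itself read 7.48, 9.54 and 9.77 FPKM in knockout, against 12.56, 15.62 and 17.81 FPKM in floxed libraries. The groups did not overlap, and the 3 knockout libraries were close to each other (log2 fold change -0.71 with SE 0.169, limma adjusted p = 0.0839). Mustn1, a small nuclear protein of muscle and skeleton, read 1.95, 2.68 and 2.62 FPKM in knockout, against 5.1, 3.62 and 3.96 FPKM in floxed libraries, also without overlap (log2 fold change -0.61 with SE 0.171, limma adjusted p = 0.108). The cysteine-rich LIM proteins tie actin to transcription in smooth muscle. Csrp2 was the one member with a positive log2 fold change and read 127.12, 135.49 and 106.31 FPKM in knockout, against 78.91, 83.55 and 98.37 FPKM in floxed libraries. All knockout libraries were above all floxed ones (log2 fold change 0.49 with SE 0.146, limma adjusted p = 0.115). Its relative Csrp1 averaged 61.8 ± 26.8 FPKM in knockout and 83.6 ± 9.57 FPKM in floxed kidneys, with replicate 3 at 91.58 FPKM inside the floxed range (limma adjusted p = 0.303). With that library left out, Srf and Csrp1 passed as lower and Csrp2 as higher, against 15.4% and 9.02% of all genes.

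The endothelin receptors relay the response to endothelin, a constrictor peptide made by endothelium. Ednra, the receptor of smooth muscle and pericytes, read 0.77, 0.89 and 2.39 FPKM in knockout, against 4.38, 4.64 and 6.52 FPKM in floxed libraries. The groups were well apart (log2 fold change -1.44 with SE 0.283, limma adjusted p = 0.0635), and the knockout mean was 0.261 of the floxed mean. Ednrb, found on endothelium and tubule cells as well, averaged 5.45 ± 1.26 FPKM in knockout and 6.39 ± 2.39 FPKM in floxed kidneys (log2 fold change -0.15 with SE 0.284, limma adjusted p = 0.744). The difference between these receptors was not tested. Kcnmb1, the smooth muscle subunit of a calcium-activated potassium channel, was below the filter at 0.29, 0.24 and 0.48 FPKM in knockout and 0.8, 0.7 and 0.93 FPKM in floxed libraries, without overlap (unadjusted p = 0.00278 and adjusted p = 0.115 by limma with no filter). Phospholamban (Pln), which restrains calcium uptake into stores, averaged 1.14 ± 0.224 FPKM in knockout and 1.42 ± 0.442 FPKM in floxed kidneys (limma adjusted p = 0.609). Of the 3 tested genes, Ednra alone passed as lower when knockout replicate 3 was left out, against 15.4% of all genes.

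Of the 4 pericyte markers, 1 was lower at an unadjusted p under 0.05, against 16.3% of all genes, and their median log2 fold change of -0.18 was near the -0.12 of all genes. Rgs5, a regulator of G-protein signalling that marks pericytes, read 11.28, 23.96 and 29.78 FPKM in knockout, against 41.13, 12.94 and 25.74 FPKM in floxed libraries. Both groups spread over a wide and shared range (log2 fold change -0.25 with SE 0.474, limma adjusted p = 0.759, exact permutation p = 0.7). Its relative Rgs4 stood at 2.69, 3.12 and 12.71 FPKM in knockout and 7.01, 4.61 and 4.83 FPKM in floxed libraries, with knockout replicate 3 the highest of all libraries and the other knockout libraries the lowest. The proteoglycan Cspg4 (NG2) showed the same layout, with 3.8, 4.51 and 9.2 FPKM in knockout and 5.58, 5.96 and 6.62 FPKM in floxed libraries (limma adjusted p = 0.897 for Rgs4 and 0.797 for Cspg4). The sign of the small log2 fold changes of Rgs4 (-0.11) and Cspg4 (-0.12) turned with median-ratio and quantile scaling, to 0.018 and 0.11 for Rgs4 and to 0.0083 and 0.098 for Cspg4. The adhesion molecule Mcam (CD146), shared by pericytes, smooth muscle and endothelium, read 7.06, 7.26 and 13.06 FPKM in knockout, against 18.6, 11.8 and 18.13 FPKM in floxed libraries (log2 fold change -0.79 with SE 0.270, limma adjusted p = 0.146). Of the 4 markers, Rgs4 and Mcam passed as lower when knockout replicate 3 was left out, against 15.4% of all genes.

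**Figure D3:**
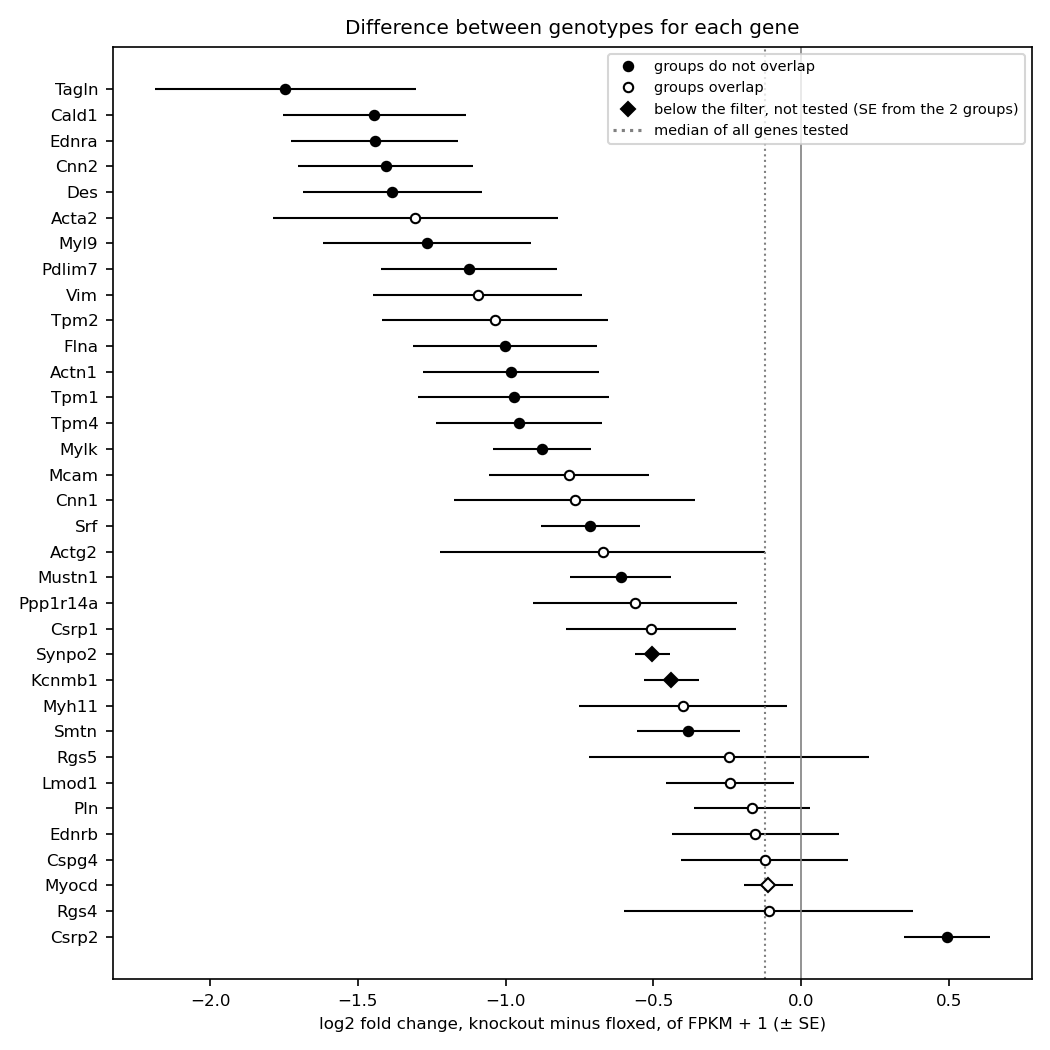
Log2 fold change of FPKM + 1, knockout minus floxed, with its SE, for the 34 genes in order of size. Filled symbols mark genes whose groups do not overlap, diamonds the 3 genes below the filter, and the dotted line the median of all genes tested at -0.12. With this pseudocount of 1 the order runs from Tagln at -1.75 to Csrp2 at 0.49.

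Within each group the libraries took different places. For 27 of the 34 genes both knockout replicates 1 and 2 lay below all floxed libraries, and replicate 3 was the highest knockout library for 26. The shares of all genes with these layouts, and with those that follow, were not computed. The counts therefore describe the listed genes and do not set them apart from other genes. Replicate 3 lay below the floxed range for 18 genes, within it for 12 and above it for 4 (Actg2, Cspg4, Csrp2 and Rgs4). Its level over the mean of replicates 1 and 2 had a median of 2.07 over the 34 genes. That ratio was 3.21 for Acta2, 3.0 for Tagln and 4.09 for Cnn1. It was 1.12 for Mylk, 1.15 for Srf and 1.13 for Mustn1, where replicate 3 lay near the mean of replicates 1 and 2. In the floxed group, replicate 2 was the lowest library for 25 genes. It was under 0.5 of the mean of floxed replicates 1 and 3 for 7 genes, chosen here after their values were seen, namely Actg2, Cnn1, Ednrb, Myh11, Myocd, Ppp1r14a and Rgs5. In the same library all 10 endothelial markers were at their floxed minimum, as were 11 of 12 other mural cell markers, against 3 of 10 fibroblast and 0 of 10 macrophage markers. Without floxed replicate 2 the log2 fold changes of Myh11 and Rgs5 were -0.73 and -0.67, and no member passed. The part of endothelial or mural cell content in these results was not tested.

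Markers of other cell types are set beside 16.3% of all genes lower and 8.38% higher at an unadjusted p under 0.05. At an adjusted p under 0.05, 1 fibroblast marker (Dpt) and 1 macrophage marker (Ms4a7) were lower and no marker of the other lists passed, and none was at 0 in every library. Of 10 fibroblast markers, 8 were lower at an unadjusted limma p under 0.05 and 10 of 10 had a log2 fold change below 0. Their levels summed to 117 to 353 FPKM in knockout and 587 to 781 FPKM in floxed libraries. Among the 8, Fap met the expression filter only through the floxed libraries. It read 0.54 to 0.59 FPKM in knockout and 1.26 to 2.17 FPKM in floxed libraries. At the same unadjusted threshold, macrophage markers were lower in 10 of 10 genes, with sums of 700.5 to 1344 FPKM in knockout and 1765 to 2598 FPKM in floxed libraries. Other mural cell markers, including Pdgfrb and Notch3, were lower in 6 of the 11 tested, with sums of 37.1 to 70.7 FPKM in knockout and 82.8 to 97.5 FPKM in floxed libraries. Endothelial markers, near the share of all genes, were lower in 2 of 10 (sums 133 to 171 FPKM in knockout and 138 to 259 FPKM in floxed libraries) and podocyte markers in 5 of 6 (sums 81.5 to 103 FPKM in knockout and 111 to 161 FPKM in floxed libraries). Proximal tubule markers were higher in 6 of 10, with sums of 4199 to 40360 FPKM in knockout and 4849 to 13570 FPKM in floxed libraries, sums that the abundant gene Kap sets. Distal nephron and collecting duct markers were higher in 6 of 8, with sums of 806.5 to 1740 FPKM in knockout and 588 to 762 FPKM in floxed libraries. The part of these cell types in the results was not tested.

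Tissue carried along in dissection was looked for as well. Skeletal muscle markers, 8 of 10 of which were found, summed to 2.39 to 3.61 FPKM in knockout and 3.83 to 5.30 FPKM in floxed libraries, with Myh1 at 0.02 FPKM or less in every library. Adipose markers, 4 of 5 found, summed to 0.48 FPKM or less in every library. Urothelial markers summed to 23.9, 57.6 and 182 FPKM in knockout replicates 1, 2 and 3, against 62.3, 44.1 and 94.6 FPKM in floxed replicates 1, 2 and 3, with 0 of 6 at an unadjusted p under 0.05. The highest sum, in knockout replicate 3, came mostly from Krt20 at 157.21 FPKM. The part of urothelial tissue in the results was not tested.

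**Figure D4:**
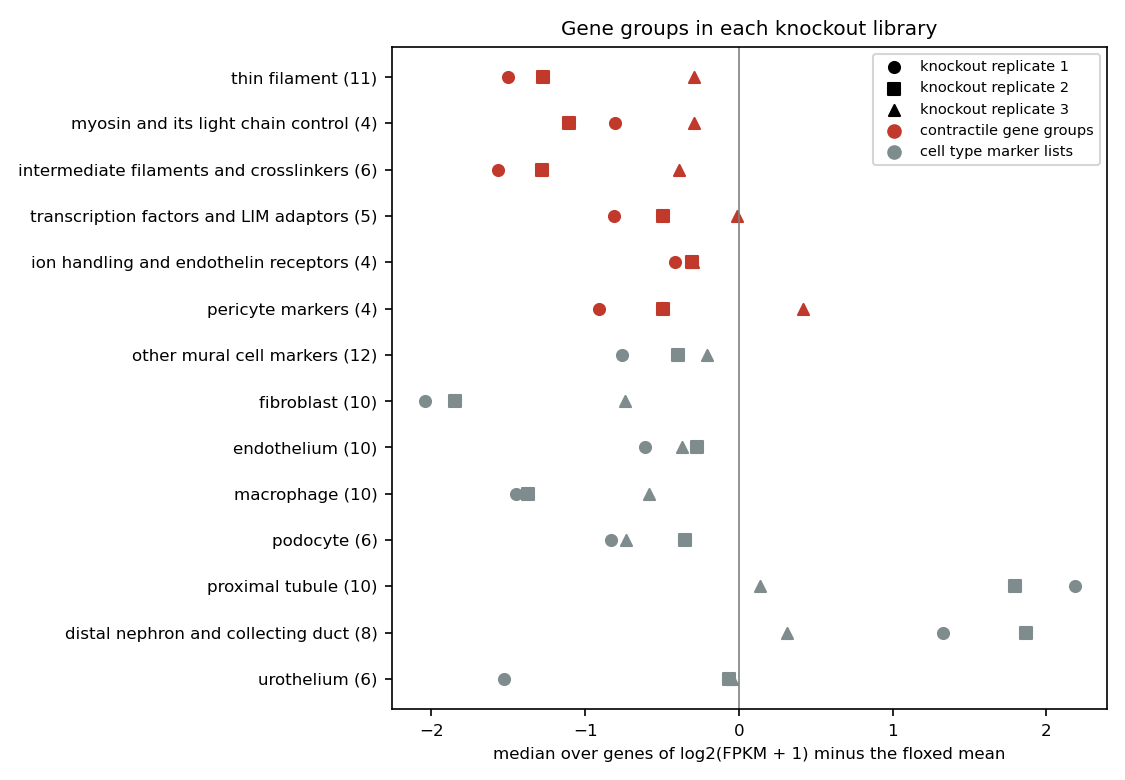
Median over genes of log2(FPKM + 1) minus the floxed mean, for each knockout library, in the 6 role groups (red) and in cell type marker lists (grey), with the number of genes in parentheses. Replicates 1 and 2 lie at -1.50 and -1.28 for thin filament genes and replicate 3 at -0.29, while fibroblast markers lie at -2.04, -1.84 and -0.74.

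Beyond the set, 62 further genes of contractile control were read. Of them 55 were tested, 0 passed at an adjusted p under 0.05, and 18 were lower and 1 higher at an unadjusted p under 0.05, against 16.3% and 8.38% of all genes, with a median log2 fold change of -0.28 against -0.12. Leaving out knockout replicate 3 gave 21 lower and 1 higher at an adjusted p under 0.05, against 15.4% and 9.02% of all genes. Among genes that control tone through calcium and cyclic GMP, 6 of 8 tested were lower at an unadjusted p under 0.05, against 16.3% of all genes, with a median of -1.07. The subunits of soluble guanylate cyclase, which relax smooth muscle in response to nitric oxide, read 6.06 ± 2.66 FPKM for Gucy1a1 in knockout and 21.6 ± 2.62 FPKM in floxed kidneys, and 3.15 ± 1.16 FPKM for Gucy1b1 in knockout and 8.42 ± 0.991 FPKM in floxed kidneys (limma adjusted p = 0.0547 for both). The phosphodiesterase Pde3a averaged 1.44 ± 0.491 FPKM in knockout and 4.53 ± 0.651 FPKM in floxed kidneys, and Mrvi1, the inositol trisphosphate receptor-associated target of cyclic GMP kinase, 1.26 ± 0.541 FPKM in knockout and 4.35 ± 1.31 FPKM in floxed kidneys (limma adjusted p = 0.0547 and 0.0635).

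Of 13 Srf cofactors and targets, 7 were lower at an unadjusted p under 0.05, against 16.3% of all genes, with a median log2 fold change of -0.57. Nexilin (Nexn), an actin-binding protein of muscle, read 1.41, 1.4 and 2.27 FPKM in knockout, against 5.94, 5.54 and 7.37 FPKM in floxed libraries. The LIM protein Fhl2 averaged 21.3 ± 6.58 FPKM in knockout and 57.3 ± 12.4 FPKM in floxed kidneys, and Filip1l 10.2 ± 3.47 FPKM in knockout and 24.0 ± 4.06 FPKM in floxed kidneys (limma adjusted p = 0.0547, 0.0547 and 0.0679 for the 3 genes). Elk3, a partner factor of Srf, averaged 8.46 ± 3.14 FPKM in knockout and 15.8 ± 0.641 FPKM in floxed kidneys (limma adjusted p = 0.0952). The Srf coactivators Mrtfa and Mrtfb averaged 7.81 ± 2.20 and 6.11 ± 2.31 FPKM in knockout and 10.8 ± 1.72 and 7.02 ± 0.394 FPKM in floxed kidneys. These coactivators were chosen for mention after their values were seen.

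Of 13 non-muscle actomyosin genes, 2 were lower and 1 higher at an unadjusted p under 0.05, shares near the 16.3% and 8.38% of all genes. Beta-actin (Actb), often used as a loading reference, read 489.33, 503.49 and 671.88 FPKM in knockout, against 1125.21, 1104.15 and 1146.07 FPKM in floxed libraries (log2 fold change -1.03 with SE 0.179, limma adjusted p = 0.0547). The adhesion protein Tln1 averaged 33.5 ± 2.74 FPKM in knockout and 42.3 ± 3.70 FPKM in floxed kidneys, and the myosin Myh9 58.3 ± 27.2 FPKM in knockout and 88.4 ± 9.85 FPKM in floxed kidneys. Epithelial non-muscle myosin Myh14 was the higher gene, at 9.11 ± 2.31 FPKM in knockout and 5.64 ± 0.80 FPKM in floxed kidneys (limma adjusted p = 0.167, 0.209 and 0.147 for Tln1, Myh9 and Myh14).

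Among 8 tested genes for vasoconstrictors and their receptors, 1 was lower at an unadjusted p under 0.05, a share no higher than the 16.3% of all genes. Endothelin 1 (Edn1), the main ligand of Ednra, read 8.93, 16.22 and 14.3 FPKM in knockout, against 23.47, 58.77 and 28.79 FPKM in floxed libraries. All knockout libraries were below all floxed ones (log2 fold change -1.35 with SE 0.362, limma adjusted p = 0.0994). The angiotensin receptor Agtr1a, the vasopressin receptor Avpr1a and the adrenergic receptor Adra1a averaged 12.3 ± 2.58, 3.54 ± 0.692 and 1.65 ± 0.516 FPKM in knockout and 14.3 ± 2.26, 4.42 ± 0.752 and 1.09 ± 0.286 FPKM in floxed kidneys (limma adjusted p = 0.497, 0.386 and 0.345).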

How the data were processed

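The deposited table gives FPKM per gene and library, rounded to 2 decimals, made by the authors, per the file headers. Reads were placed on build mm9 (per the submitters' processing notes). Which aligner, counter and annotation were used, and whether strand was, is not given in the sources used here. RNA was extracted with TRIzol and Illumina libraries were made, per the labels' protocols. The labels do not tie libraries to individual mice, and p-values measure spread between samples that may be technical. Groups and replicate numbers came from the sample titles.

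Genes with at least 1 FPKM in at least 3 libraries (13390) were fitted as log2(FPKM + 1) with limma 3.58.1 in R 4.3.3 (mean-variance trend, group only, two-sided, Benjamini-Hochberg over all genes, threshold 0.05). The fit was tested on simulated data with independent noise for each gene and no outlying library. That test therefore does not cover data in which knockout replicate 3 stood apart. Depth was estimated from transcripts of 300 to 2000 nucleotides with GENCODE lengths (GRCm38): 65.7% to 68.1% of low values lay within 0.2 of whole fragments, against 40% with no spacing, so it is approximate. Intervals from counts were not computed. Python 3.11.15 with pandas 2.3.3 and matplotlib 3.10.9 made tables and plots.

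Members and lists were chosen with earlier results of these data known. Values in every library are given for Acta2, Tagln, Myh11, Des, Rgs5, Vim and Cnn1 and for 15 further members in order of p. Outside this rule they are also given for Rgs4 and Cspg4, and for Myocd, Synpo2 and Kcnmb1, which were below the filter. Each further list gives up to 4 genes in order of p. The further genes' totals include 1 list that is not reported here. Alternatives were other pseudocounts, filters and scalings, limma without trend, array weights, a replicate block and leaving out each library. Equal replicate numbers were not taken to pair samples, except in the replicate block.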

Additional observations from a re-analysis of the deposited data

How the results depend on the processing

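The count of 9 genes passing over all genes was 1 with a pseudocount of 0.1 or 0.01, a mean of at least 5 FPKM, median-ratio scaling, quantile scaling or no trend, 0 with no filter, 2 with the replicate block and 1456 with array weights, and 0 to 3271 with one library left out. The 0 members passing became 14 with array weights and ranged from 0 to 21 with one library left out, 21 being without knockout replicate 3. Array weights gave knockout replicate 3 the lowest weight, 0.3645, against 0.6128 to 3.927 for the other libraries. Calls with array weights are therefore no support independent of leaving that library out. Among the 62 further genes, 11 passed with array weights and 0 to 22 with one library left out, and the 18 lower at an unadjusted p under 0.05 were 11 with a mean of at least 5 FPKM (fewer genes are then tested) and 14 to 31 with one library left out. The members' median stayed between -1.17 and -0.65 in all alternatives. Log2 fold changes with one library left out ran from -1.84 to -0.97 for Acta2, -2.27 to -1.32 for Tagln, -1.75 to -1.17 for Des, -1.52 to -0.85 for Vim and -1.17 to -0.41 for Cnn1, each passing without knockout replicate 3, and with array weights Tagln (-1.91) and Des (-1.49) passed too. Signs turned for Rgs5 (0.037 with array weights, -0.67 to 0.15 with one library left out), Pln (0.047 with quantile scaling), Ednrb (0.040 with quantile scaling, 0.055 with array weights, -0.46 to 0.020), Rgs4 (0.018 and 0.11 with median-ratio and quantile scaling, -0.71 to 0.23) and Cspg4 (0.0083 and 0.098, -0.45 to 0.091). The cause was not tested. Deviations of samples with the same replicate number correlated at -0.126, -0.0699 and 0.034, against -0.122 to 0.135 for samples with unlike numbers. With 3 libraries per group these values cannot show whether the numbers pair samples. The replicate block left 0 members passing. Genes below about 1 FPKM, such as Myocd, rest on few fragments.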

Other observations

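Of the 62 further genes of contractile control, 52 had a promoter window. The CArG box occurred in 6 of them (Actg1, Fhl1, Fhl2, Filip1l, Myl6 and Vcl), and in 1.81% of all genes with windows. Fhl1, Fhl2, Filip1l and Vcl come from the list of Srf cofactors and targets, which was chosen for its link to Srf. Fhl2 and Filip1l are given above. Vinculin (Vcl), which anchors actin at adhesions, averaged 20.8 ± 10.4 FPKM in knockout and 33.5 ± 9.54 FPKM in floxed kidneys (limma adjusted p = 0.241), gamma actin (Actg1) 816.9 ± 173 FPKM in knockout and 1002 ± 121 FPKM in floxed kidneys (limma adjusted p = 0.385), and the light chain Myl6 869.6 ± 43.8 FPKM in knockout and 1015 ± 50.9 FPKM in floxed kidneys (limma adjusted p = 0.383). The LIM protein Fhl1 read 76.87, 68.57 and 47.86 FPKM in knockout, against 36.67, 45.29 and 53.79 FPKM in floxed libraries, with replicate 3 inside the floxed range (limma adjusted p = 0.217). Its knockout replicates 1 and 2 were above all floxed libraries. When knockout replicate 3 was left out, Vcl passed as lower and Fhl1 as higher, against 15.4% and 9.02% of all genes.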
